A study of Homo sapiens with 4 samples.

Results

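The zinc finger genes of chromosome 19 were taken as all protein-coding genes of that chromosome whose symbol starts with ZNF in the GENCODE annotation for hg19. They numbered 249 of the 1480 protein-coding genes of the chromosome (16.8%) and of 19222 on the autosomes. The data were H3K27ac HiChIP loop lists from M14, a human melanoma cell line. HiChIP ligates DNA ends that sit next to each other in fixed nuclei and pulls down the pairs that carry a chosen protein or mark, here histone H3 acetylated at lysine 27, which marks active promoters and enhancers. Both groups held the same construct, an shRNA to STAG2 that doxycycline switches on. The WT group was grown without doxycycline and the STAG2-KD group with it for 5 days, so the drug itself and the knockdown cannot be told apart, and every cell came from 1 line. The labels named 4 samples, 2 in each group, and 1 loop list in each group was analysed here, filed under the first replicate of its group. It was not stated whether that list pools both replicates. No difference between the lists has a replicate check, so no test was made.

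STAG2 is one of the alternative subunits of cohesin, the ring complex that extrudes DNA into loops, and STAG1 takes the same place in the other form of the complex. Most ZNF genes encode proteins with arrays of C2H2 zinc fingers that read DNA sequence, and many of them also carry a KRAB domain that recruits the corepressor TRIM28 to silence transposable elements. The genes arose by repeated tandem duplication, which left dense clusters of related copies on chromosome 19. In many cell types the bodies of these genes carry repressive H3K9 methylation while their promoters stay open and active.

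A loop was assigned to a ZNF gene where a transcript start of that gene lay inside either of its 5 kb anchors. By that rule 105 of the 1148 chromosome 19 loops of the WT list (9.15%) and 88 of the 1129 of the STAG2-KD list (7.79%) touched a ZNF promoter. The lists held 27289 and 25621 autosomal loops in all, and gave positions with no read counts or scores, so that depth is unknown and a loop missing from one list may lie just under the limit of the loop caller. Among markers of the melanocyte lineage, 6 of 7 genes had a loop in the WT list and 5 in the STAG2-KD list, where 39.1% and 36.8% of all autosomal protein-coding genes did, including MITF, its master regulator, with 7 and 2 loops and SOX10, a transcription factor of the neural crest, with 4 and 4. Of 4 markers of other cells found in the annotation, CD3E (1 and 3 loops) and KRT14 (2 and 2) were looped. STAG2 lies on the X chromosome, which the lists do not cover, so the knockdown could not be checked in them.

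ZNF460 carried the most loops over both lists of any chromosome 19 ZNF gene, and all of them ended at other ZNF promoters. The gene lies at chr19:57791419-57805437 on the plus strand, in the ZNF cluster closest to the chromosome end, and encodes a KRAB zinc finger protein. The upstream 250 bases of its promoter and of 5 of its partners are shown because these contacts make up 7 of the 19 ZNF to ZNF loops found in both lists. ZNF805 is the partner to its left, ZNF304, ZNF17 and ZNF749 are shared partners at growing distance to its right, and ZNF530 is the far partner of the WT list. Each sequence is from RefSeq (build GRCh38.p14) and was located in hg19 by an exact match that occurred once, at chr19:57791100-57791349 for ZNF460, chr19:57751750-57751999 for ZNF805, chr19:57862389-57862638 for ZNF304, chr19:57922279-57922528 for ZNF17, chr19:57946443-57946692 for ZNF749 and chr19:58111003-58111252 for ZNF530, all on the plus strand. Capitals mark the letters of the searched motifs on either strand.
ZNF460: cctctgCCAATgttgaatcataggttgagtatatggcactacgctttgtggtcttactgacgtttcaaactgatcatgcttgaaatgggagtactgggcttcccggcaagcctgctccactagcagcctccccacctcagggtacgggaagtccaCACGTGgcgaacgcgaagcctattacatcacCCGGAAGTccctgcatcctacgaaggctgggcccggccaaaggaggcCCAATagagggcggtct
ZNF805: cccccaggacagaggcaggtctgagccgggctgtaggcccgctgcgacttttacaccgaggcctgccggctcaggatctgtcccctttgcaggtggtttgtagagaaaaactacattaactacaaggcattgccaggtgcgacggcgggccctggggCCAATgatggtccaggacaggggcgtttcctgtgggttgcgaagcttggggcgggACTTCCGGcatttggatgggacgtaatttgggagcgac
ZNF304: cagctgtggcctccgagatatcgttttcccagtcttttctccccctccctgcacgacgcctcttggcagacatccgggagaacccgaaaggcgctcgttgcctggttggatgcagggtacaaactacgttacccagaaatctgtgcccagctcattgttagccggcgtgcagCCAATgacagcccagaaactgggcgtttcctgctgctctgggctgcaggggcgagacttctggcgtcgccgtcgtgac
ZNF17: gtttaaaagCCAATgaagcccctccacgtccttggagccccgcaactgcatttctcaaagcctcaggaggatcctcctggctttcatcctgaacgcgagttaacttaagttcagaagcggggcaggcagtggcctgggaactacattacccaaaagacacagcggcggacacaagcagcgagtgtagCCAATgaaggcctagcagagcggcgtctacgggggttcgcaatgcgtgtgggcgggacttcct
ZNF749: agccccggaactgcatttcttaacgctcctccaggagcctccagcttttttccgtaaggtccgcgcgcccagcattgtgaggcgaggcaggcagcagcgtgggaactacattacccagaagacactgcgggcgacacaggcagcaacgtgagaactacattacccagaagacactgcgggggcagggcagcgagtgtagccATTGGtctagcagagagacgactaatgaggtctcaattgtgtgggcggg
ZNF530: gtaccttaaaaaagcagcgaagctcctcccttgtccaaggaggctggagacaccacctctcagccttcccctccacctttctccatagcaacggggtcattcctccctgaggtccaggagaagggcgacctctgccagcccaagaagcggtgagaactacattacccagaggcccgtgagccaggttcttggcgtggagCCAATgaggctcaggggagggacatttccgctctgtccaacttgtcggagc

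The ZNF460 promoter had 8 loops in the WT list and 7 in the STAG2-KD list, and 7 of them joined the same bins in both. On its left it met ZNF805 at 40 kb. On its right it met ZNF543 at 40 kb, ZNF304 at 70 kb, ZNF547 at 85 kb, ZNF548 at 110 kb, ZNF17 at 130 kb and ZNF749 at 155 kb, again in both lists. The contact with ZNF530 at 320 kb, across 12 other ZNF genes, was in the WT list only and was the longest ZNF to ZNF loop of that list. The promoters of ZNF460 and its partners formed the largest connected group of ZNF anchors in either list, with 9 anchors and 11 loops over 360 kb in the WT list and 8 anchors and 8 loops over 195 kb in the STAG2-KD list. Contacts among the partners themselves were not shared: ZNF543 to ZNF304, ZNF304 to ZNF548 and ZNF17 to ZNF749 were in the WT list only, and ZNF547 to ZNF548 in the STAG2-KD list only.

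**Figure D1:**
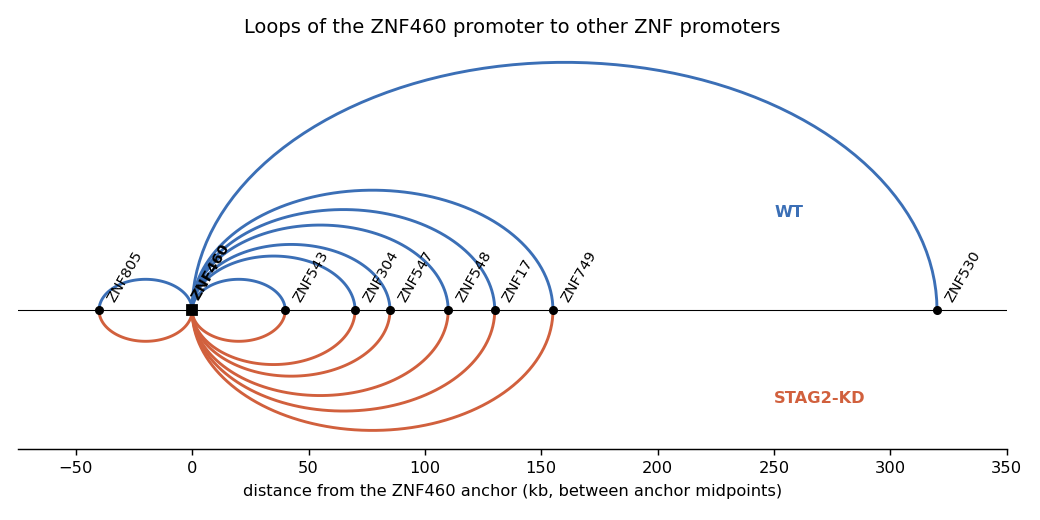
Loops of the ZNF460 promoter to other ZNF promoters, with the distance between anchor midpoints in kb on the horizontal axis and arcs of the WT list above and the STAG2-KD list below the line; arc height follows distance and measures nothing else. The 7 contacts from 40 kb on the left to 155 kb on the right are drawn in both lists, and the arc to ZNF530 at 320 kb is in the WT list only.

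The letters of these promoters were searched for 6 motifs of factors known at promoters, on both strands and over 300 bases from 250 before to 50 after the RefSeq start: CCAAT (the NF-Y box), CCGGAAGT (an ETS site), CACGTG (an E-box), TGACGTCA (a CRE site), GCATGCGC (an NRF1 site) and ACTACAAT (part of a ZNF143 site). No motif contains another. CCAAT was present in 9 of 9 promoters of ZNF460 and its partners, in 54.1% of the 218 chromosome 19 ZNF promoters that matched the RefSeq table, in 37.0% of 968 other protein-coding promoters of the chromosome and in 34.6% of all 35116 promoters of the table. CCGGAAGT was present in 20.6% of the ZNF promoters against 4.44% of the other chromosome 19 promoters and 4.14% of all promoters. The ETS letters were in 27.7% of the 94 matched promoters of looped ZNF genes and in 15.3% of the 124 of ZNF genes without a loop. For CCAAT the order was the other way, with 48.9% and 58.1%. CACGTG was in 7.45% of looped and 1.61% of not looped ZNF promoters, against 8.78% of other chromosome 19 promoters. The median number of CG dinucleotides was 21 in looped and 19.5 in not looped ZNF promoters. GCATGCGC was in 4.13%, TGACGTCA in 3.21% and ACTACAAT in 1.38% of all matched ZNF promoters. These counts describe letters in a fixed window and not bound sites. The RefSeq start of ZNF547 lies 1 bin to the left of its loop anchor, in which other transcripts of the gene start.

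Across the whole set, 86 of 249 ZNF genes (34.5%, 95% exact binomial interval 28.6 to 40.8%) had a loop in the WT list and 75 (30.1%, 24.5 to 36.2%) in the STAG2-KD list. Among the other 1231 protein-coding genes of the chromosome, 550 (44.7%, 41.9 to 47.5%) and 533 (43.3%, 40.5 to 46.1%) did. The 255 ZNF genes of other autosomes were looped at 46.7% (40.4 to 53.0%) and 42.4% (36.2 to 48.7%). The intervals of the ZNF genes and of the other chromosome 19 genes did not overlap in either list, but this rested on the cluster from ZNF101 to ZNF254, where 2 and 1 of 37 genes were looped. Without that cluster the shares were 39.6% (33 to 46.5%) and 34.9% (28.5 to 41.7%) of 212 ZNF genes, and the intervals overlapped. The intervals cover counting error only, and neighbouring genes that share an anchor are not independent. Of the ZNF genes, 62 of 134 on the plus strand (46.3%) and 40 of 115 on the minus strand (34.8%) had a loop in at least 1 list.

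Looped ZNF genes also had fewer loops each. They carried a mean of 1.83 ± 1.25 loops (SD over 86 genes, median 1, maximum 8) in the WT list and 1.76 ± 1.22 (75 genes, median 1, maximum 7) in the STAG2-KD list, whereas other looped chromosome 19 genes carried 3.42 ± 2.61 and 3.45 ± 2.64 (median 3 in both). At least 3 loops were found at 17.4% (10.1 to 27.1%) and 20% (11.6 to 30.8%) of looped ZNF genes and at 52.4% (48.1 to 56.6%) and 52.9% (48.6 to 57.2%) of the others. A single loop was found at 44 of 86 ZNF genes in the WT list and at 43 of 75 in the STAG2-KD list. The looped ZNF starts fell in 84 and 75 anchors, of which 12 in each list also held the start of another protein-coding gene and 5 held starts of several ZNF genes.

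A smaller share of looped ZNF genes than of other looped genes of the chromosome appeared in both lists. Of 102 ZNF genes looped in at least 1 list, 59 (57.8%, 47.7 to 67.6%) were looped in both, against 473 of 610 other genes (77.5%, 74.0 to 80.8%). Of all 249 ZNF genes, 27 (10.8%, 7.27 to 15.4%) were looped in the WT list only and 16 (6.43%, 3.72 to 10.2%) in the STAG2-KD list only, and 147 in neither. The same calls were made for 7.03% (WT only) and 5.14% (STAG2-KD only) of the 1480 protein-coding genes of chromosome 19, and for 7.72% and 5.49% of the 19222 of all autosomes. The interval of the STAG2-KD-only share held both backgrounds, and that of the WT-only share held the autosomal one and began above that of the chromosome. The chromosome background counts 104 and 76 genes, the ZNF genes included. The share found again depended on how many loops a gene had. Of ZNF genes with 1 WT loop, 24 of 44 (54.5%, 38.8 to 69.6%) were looped in the STAG2-KD list, against 99 of 157 other genes (63.1%, 55.0 to 70.6%). With 2 or more WT loops the counts were 35 of 42 (83.3%, 68.6 to 93.0%) and 374 of 393 (95.2%, 92.6 to 97.1%). In the reverse direction 78.7% (67.7 to 87.3%) of ZNF genes and 88.7% (85.7 to 91.3%) of other genes looped in the STAG2-KD list were looped in the WT list. With 1 STAG2-KD loop the counts were 31 of 43 ZNF genes (72.1%, 56.3 to 84.7%) and 108 of 147 other genes (73.5%, 65.6 to 80.4%). With 2 or more STAG2-KD loops they were 28 of 32 (87.5%, 71.0 to 96.5%) and 365 of 386 (94.6%, 91.8 to 96.6%).

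**Figure D2:**
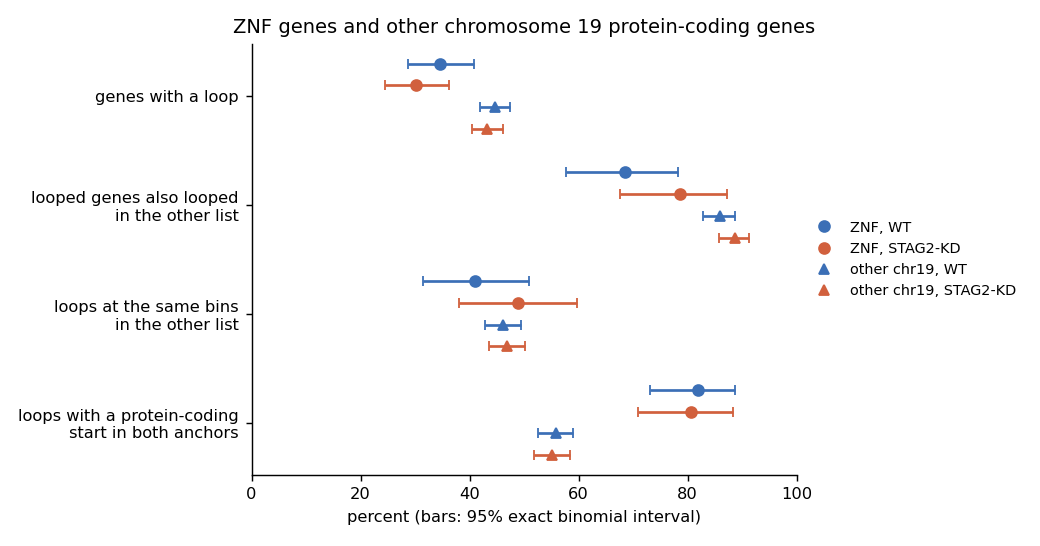
Percent of genes or loops, with 95% exact binomial intervals as bars, for chromosome 19 ZNF genes (circles) and other protein-coding genes of the chromosome (triangles) in the WT and STAG2-KD lists. The ZNF points lie to the left of the others for genes with a loop and for looped genes found again, near them for loops at the same bins, and to the right (81.9 and 80.7% against 55.8 and 55.2%) for loops with a protein-coding start in both anchors.

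For single loops, the intervals of the ZNF promoters and of the other promoters of the chromosome overlapped. Of the ZNF loops, 43 joined the same bins in both lists, which is 41.0% (31.5 to 51.0%) of the WT loops and 48.9% (38.1 to 59.8%) of the STAG2-KD loops. For loops at other protein-coding promoters of the chromosome the shares were 46.2% (42.9 to 49.5%) of 914 and 46.9% (43.6 to 50.3%) of 899. The remaining 62 WT-only and 45 STAG2-KD-only ZNF loops were compared with those elsewhere for how often their anchors reappeared. Both anchors of a WT-only ZNF loop were used by some loop of the other list in 33.9% (22.3 to 47.0%) of cases and neither in 14.5% (6.86 to 25.8%), against 54.9% (50.4 to 59.3%) and 4.27% (2.66 to 6.45%) for the other promoters. For STAG2-KD-only loops both anchors reappeared in 42.2% (27.7 to 57.8%) and neither in 20% (9.58 to 34.6%), against 53.2% (48.7 to 57.8%) and 4.82% (3.08 to 7.15%). The intervals overlapped only for the STAG2-KD-only loops with both anchors in the other list. Anchors were not matched for number of loops, and looped ZNF genes had fewer each (mean 1.83 and 1.76 against 3.42 and 3.45). A loop of the other list lay within 2 bins at both anchors for 7 of the 62 and 9 of the 45.

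The number of ZNF loops was lower in the STAG2-KD list by a ratio of 0.838, with 0.783 for ZNF to ZNF loops (46 and 36) and 0.881 for the rest (59 and 52). The ratio was 0.984 for the other promoter loops of the chromosome and 0.939 for all autosomal loops. ZNF genes of other autosomes also had fewer loops in the STAG2-KD list, 353 and 299, of which 35 and 24 were ZNF to ZNF. The drop was therefore not particular to chromosome 19. On that chromosome, 1 cluster held most of the gap in ZNF loops. Without the 43 genes from ZNF264 to ZNF446, the cluster that holds ZNF460, the lists had 73 and 70 ZNF loops and 64 and 60 looped ZNF genes of 206. By gene, 46 of the 102 looped ZNF genes had fewer loops in the STAG2-KD list, 30 had more and 26 the same number, and among the 610 other genes 256 had fewer and 227 more. Of the 129 looped ZNF genes of other autosomes, 62 had fewer and 32 more.

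ZNF genes lie in 10 clusters, taken here as runs of 5 or more genes with under 500 kb between neighbouring 5′ ends, which held 235 of the 249. Their use differed widely. The cluster from ZNF575 to ZNF180 (chr19:44029649-45004576) had 15 of 23 genes looped in the WT list and 14 in the STAG2-KD list, with 14 and 13 loops of which 5 were shared. The cluster from ZNF264 to ZNF446 (chr19:57702868-58992597) had 22 and 15 of 43 genes looped and 32 and 18 loops, 12 of them shared. At the other extreme stood the cluster from ZNF101 to ZNF254 (chr19:19779605-24312770), which spans 4533 kb next to the centromere. Of its 37 genes 2 were looped in the WT list and 1 in the STAG2-KD list, through 3 loops of ZNF101 and ZNF14.

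Between these lay the cluster from ZNF146 to ZNF573 (chr19:36673178-38307940), with 8 of 26 genes looped in the WT list and 2 in the STAG2-KD list and no shared loop. All 4 of its WT loops joined ZNF starts, and both STAG2-KD loops left the common ZNF146 and ZNF565 anchor for promoters of other genes. The cluster from ZNF175 to ZNF331 (chr19:52074536-54083523) went the other way, with 10 and 14 of 40 genes looped and 7 and 9 loops, 4 of them shared. In the cluster from ZNF653 to ZNF490 (chr19:11594242-12750912), 10 and 8 of 26 genes were looped, with 10 and 7 loops and 2 shared. The cluster from ZNF628 to ZNF835 (chr19:55987984-57183151) kept 9 loops of 15 and 12. The cluster from ZNF414 to ZNF846 (chr19:8574562-9903856) had 3 and 7 loops and none in common, and the 2 clusters of 5 genes, ZNF554 to ZNF77 and ZNF302 to ZNF792, had 0 and 1 and 2 and 1 loops. The 14 ZNF genes outside clusters had 16 and 17 loops, 10 of them shared. Among the 110 protein-coding genes of other kinds that lie within the clusters, 28 (25.5%, 17.6 to 34.6%) and 31 (28.2%, 20 to 37.6%) were looped. Of the ZNF genes around them 33.6% (27.6 to 40%) and 28.5% (22.8 to 34.7%) were looped, with overlapping intervals.

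**Figure D3:**
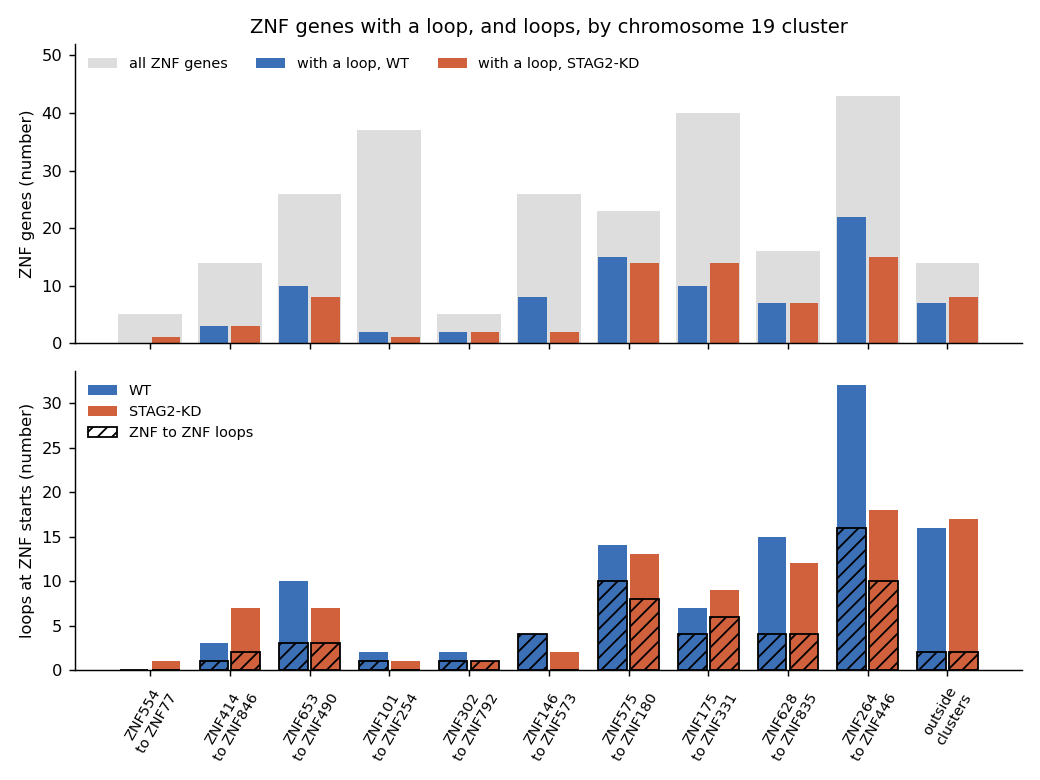
Number of ZNF genes (upper plot, grey for all and coloured for those with a loop) and number of loops at ZNF starts (lower plot, hatched where both anchors hold a ZNF start) in each cluster, named by its first and last gene. The cluster from ZNF264 to ZNF446 has 32 WT and 18 STAG2-KD loops, and the cluster from ZNF101 to ZNF254 has 2 and 1 for 37 genes.

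The partners of ZNF promoters were mainly ZNF promoters and other protein-coding promoters, in similar numbers. ZNF starts lay in both anchors of 46 of 105 WT loops (43.8%, 34.1 to 53.8%) and 36 of 88 STAG2-KD loops (40.9%, 30.5 to 51.9%). In 2 of the 36 the 2 anchors held starts of the same gene, as in 2 of the 46, and with 1 start a gene the shares were 38.8 and 31.6%. Other protein-coding promoters were the partner of 40 and 35 loops, other annotated starts of 3 and 5, and bins without any annotated start of 16 (15.2%, 8.97 to 23.6%) and 12 (13.6%, 7.25 to 22.6%). Loops with a protein-coding start in both anchors made up 81.9% (73.2 to 88.7%) and 80.7% (70.9 to 88.3%) of ZNF loops, against 55.8% (52.5 to 59.0%) and 55.2% (51.9 to 58.5%) of the other promoter loops of the chromosome. For ZNF genes of other autosomes, ZNF to ZNF loops were 9.92% and 8.03%.

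The share of ZNF partners was set beside the share of ZNF promoters in reach. Around looped ZNF anchors, 58.8% (56.5 to 61.0%) of the promoter bins at 20 to 200 kb held a ZNF start in the WT list and 56.8% (54.3 to 59.2%) in the STAG2-KD list. Of the promoter partners in that range, 45 of 81 (55.6%, 44.1 to 66.6%) and 34 of 64 (53.1%, 40.2 to 65.7%) were ZNF promoters. Each loop was counted once here, whereas the share in reach counts a pair of looped ZNF anchors from both ends. Counting ZNF to ZNF loops from both ends would raise the partner share, so the 2 kinds of share cannot be compared directly. Of all ZNF promoter bin pairs in that range, 1.57% (1.15 to 2.09%) and 1.19% (0.823 to 1.65%) were looped, and of pairs of other promoter bins 1.32% (1.20 to 1.44%) and 1.26% (1.14 to 1.38%). The rate for pairs of a ZNF bin and another promoter bin is not given here. Without it, a preference for ZNF partners or its absence cannot be read from these rates. Pairs were also limited to promoter bins that anchor a loop of any kind in the list. The shares were then 30.0% (22.8 to 38.0%) and 29.1% (21.0 to 38.2%) for ZNF pairs and 27.7% (25.5 to 30.0%) and 26.4% (24.3 to 28.7%) for other pairs. These bins were chosen partly by the loops that are counted, which raises both shares, and looped ZNF genes had fewer loops each. Similar shares therefore do not show equal pairing.

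In total 63 different ZNF to ZNF loops were listed, of which 19 were shared, 27 were WT-only and 17 STAG2-KD-only. Of these, 60 lay within a cluster, 3 joined genes outside clusters and 0 joined 2 clusters. That 0 was nearly set by the definition, which splits clusters at gaps of 500 kb or more. Apart from 1 loop of 675 kb, the longest ZNF to ZNF loop spanned 450 kb. Different genes with no ZNF gene between them were joined by 35 of the 63. The shortest spanned 20 kb, among them ZNF461 to ZNF567 in the WT list and 2 starts of ZNF846 in the STAG2-KD list. In 3 of the loops both anchors held starts of the same gene (ZNF846, ZNF875 and ZNF28). Of the 53 loops with 1 ZNF gene at each end, 28 joined genes both on the plus strand, 8 both on the minus strand, 9 a plus gene on the left to a minus gene and 8 the reverse. All loops of ZNF460 are among the 28, since it and its partners lie on the plus strand, as do 134 of the 249 ZNF genes. Strands of all ZNF pairs in reach were not counted, so no preference can be read from these counts.

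In the WT list the next connected group, with 5 anchors and 5 loops, was the run from ZNF284 to ZNF226 in the cluster from ZNF575 to ZNF180. In the STAG2-KD list ZNF224 and ZNF225 were in a group of 3 anchors and 2 loops with ZNF227, without ZNF284 and ZNF234. ZNF224, a KRAB repressor known from the aldolase A promoter, was joined to ZNF284, ZNF225 and ZNF234 in the WT list and to ZNF225 in the STAG2-KD list, 3 and 1 loops. ZNF234 likewise had 3 and 1, and ZNF225 2 and 2. The loops ZNF224 to ZNF225 and ZNF234 to ZNF226, both of 20 kb, were shared. ZNF233 was joined to ZNF227 and to ZNF235, both at 45 kb, in the WT list only, whereas ZNF227 and ZNF235 were joined to each other at 90 kb in the STAG2-KD list only. In the cluster from ZNF628 to ZNF835, ZNF865 had 7 and 5 loops and 3 in common. It met ZNF784 at 20 kb in both lists, ZNF628 at 130 kb in the WT list, and ZNF579 at 25 kb and the ZNF580 and ZNF581 anchor at 30 kb in the STAG2-KD list. ZNF628, with 3 loops in the WT list, had none in the STAG2-KD list. ZNF587B had 4 and 2 loops with none shared. It met ZNF776 and ZNF586 in the WT list and ZNF417 and ZNF587 in the STAG2-KD list, with promoter identities to ZNF586, ZNF776 and ZNF587 of 67.6, 66 and 63.6% over the 250 upstream bases.

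The longest ZNF to ZNF loop of the STAG2-KD list, also its longest ZNF loop, joined ZNF83 to ZNF525 across 675 kb and 14 other ZNF genes. It was absent from the WT list, in which neither gene had a loop. The promoters of these genes are alike, with 81.2% identity over 250 upstream bases, the highest among the looped pairs of 1 cluster. They are shown for that likeness, with their longest common run of 23 bases in capitals, and lie at chr19:53193750-53193999 on the minus strand (ZNF83) and chr19:53868708-53868957 on the plus strand (ZNF525).
ZNF83: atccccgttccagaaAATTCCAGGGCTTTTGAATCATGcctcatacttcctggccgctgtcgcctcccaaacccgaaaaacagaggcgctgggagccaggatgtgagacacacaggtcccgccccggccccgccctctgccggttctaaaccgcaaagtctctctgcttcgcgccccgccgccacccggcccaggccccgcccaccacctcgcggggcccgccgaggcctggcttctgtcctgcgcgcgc
ZNF525: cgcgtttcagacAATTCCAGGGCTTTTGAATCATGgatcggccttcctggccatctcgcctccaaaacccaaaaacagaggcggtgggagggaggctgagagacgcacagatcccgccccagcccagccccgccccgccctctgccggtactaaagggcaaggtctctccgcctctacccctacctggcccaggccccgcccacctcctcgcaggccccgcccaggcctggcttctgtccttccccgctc

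Looped pairs as a set were about as alike as pairs without a loop. Identity was measured by pairwise alignment of the 250 upstream bases for 575 pairs of ZNF promoters of the same cluster at 20 to 200 kb. The 51 looped pairs had a median identity of 55.6% (quartiles 49.8 and 59.4%) and the 524 pairs without a loop 56.6% (52.4 and 61.2%). Identity of 60% or more was found for 11 looped pairs (21.6%) and 164 others (31.3%). It was found for 25% of the looped pairs without ZNF460 and for 23.7% of the 114 pairs without a loop whose genes were both looped elsewhere. The partners of ZNF460 stood between 42.4% (ZNF749) and 52.8% (ZNF530, ZNF547 and ZNF548). The looped pairs ZNF808 to ZNF701 (80%, STAG2-KD list) and ZNF224 to ZNF225 (71.6%, both lists) followed ZNF83 to ZNF525. The sources used here do not state how reads that fit more than 1 copy were placed, and their part in these loops was not tested.

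Outside the family, some promoters took contacts from several ZNF genes. The 56 loops from ZNF to other protein-coding promoters included 19 shared, 21 WT-only and 16 STAG2-KD-only loops. U2AF2, a subunit of the splicing factor that reads the polypyrimidine tract, met ZNF865, ZNF784 and the ZNF580 and ZNF581 anchor in both lists and ZNF628 in the WT list. PSMC4, an ATPase subunit of the proteasome, met ZNF546, ZNF780B and ZNF780A at 25, 85 and 120 kb in both lists. ZBTB45, a zinc finger gene of the BTB family, met ZNF274 at 340 kb and ZNF497 at 160 kb in both lists, and ZNF584 at 120 kb in the WT list and at 110 kb in the STAG2-KD list. Other partners had no loop in common: ACP5, UBE2M and ZSCAN22 each had 2 loops from 2 ZNF genes in the WT list only, and SWSAP1 had 1 in each list. ERVK3-1 and PPP2R1A each had 2 loops with 1 in common.

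Loops that left a cluster were few. That depends on the cluster limits: ZNF loops had a median of 55 kb in both lists and clusters were 125 to 4533 kb long. Of the loops with a ZNF start inside a cluster, 14 of 89 (15.7%, 8.88 to 25%) in the WT list and 14 of 71 (19.7%, 11.2 to 30.9%) in the STAG2-KD list ended outside it. They came to 25 different loops, of which 3 were shared, and 20 ended at a protein-coding promoter. Their distances ran from 25 to 395 kb with a median of 115 kb. The 3 shared ones were ZNF274 to ZBTB45, which at 340 kb was the longest ZNF loop of the WT list, ZNF497 to ZBTB45, and the common anchor of ZNF490 and ZNF791 to the WDR83 and WDR83OS anchor at 60 kb. ZNF274, known to bind the 3′ ends of zinc finger genes and to bring the methyltransferase SETDB1 there, had 4 and 3 loops, 2 of them shared. The cluster from ZNF264 to ZNF446 sent out 7 loops in the WT list and 4 in the STAG2-KD list. ZNF414, the first gene of its cluster, left it for MARCHF2 in the WT list and for HNRNPM and the RPS28 anchor in the STAG2-KD list, with 2 and 3 loops and none shared.

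Loop numbers differed by at most 3 between the lists. A difference of 3 was found for ZNF526 and ZNF628. A difference of 2 was found for 6 genes with more loops in the STAG2-KD list and 15 with fewer. Of these, 4 each were taken for the plot in order of symbol, and in the same way 2 of 6 genes with 5 loops over both lists. ZNF865, ZNF497 and ZNF587B also had 2 fewer loops and are plotted among the 10 genes with the most loops. ZNF526, outside any cluster, had 4 loops in the WT list and 7 in the STAG2-KD list with 3 in common, from an anchor that also holds the start of DEDD2. Its shared partners were a bin without a start at 105 kb, GSK3A at 25 kb and CIC, a transcriptional repressor, at 50 kb. ZNF428 had 1 and 3 loops, and ZNF136 had 0 and 2, both to ZNF promoters (ZNF20 at 20 kb and the ZNF490 and ZNF791 anchor at 450 kb). ZNF146 and ZNF565 shared 0 and 2 loops. ZNF101 and ZNF233 had 2 and 0. ZNF497 had 5 and 3 loops, with all 3 of the latter in both lists, and ZNF444 had the same 3 loops in each. ZNF780B had 3 and 3 with 2 in common, and ZNF490 2 and 3 with 1 in common. Among genes named as the most looped of a small or sparse cluster, ZNF181 had 2 and 1 loops, ZNF614 1 and 2, and ZNF554 0 and 1.

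**Figure D4:**
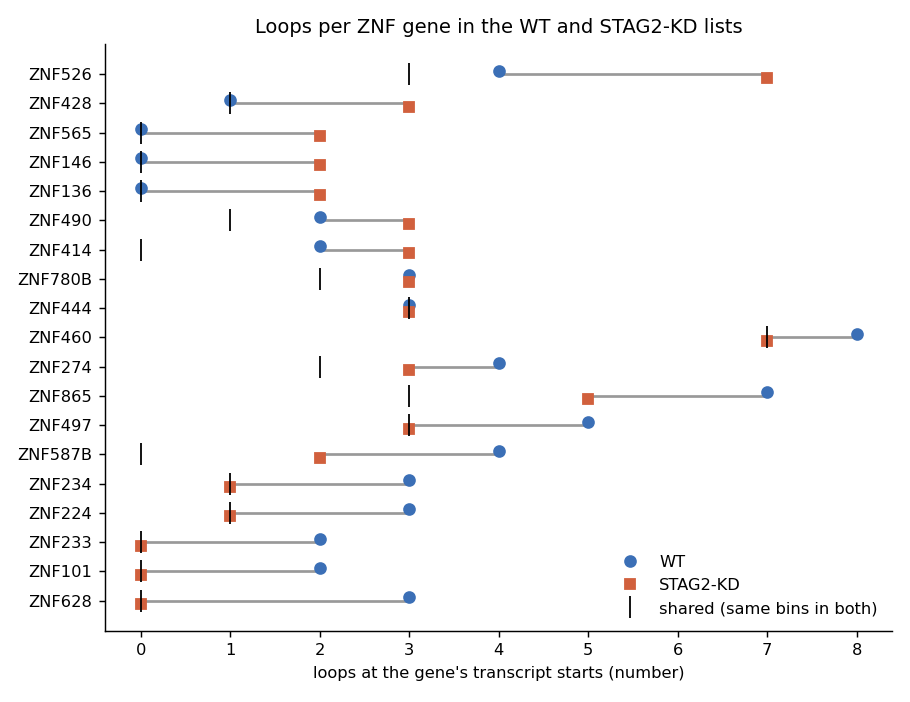
Loops per gene for the 10 ZNF genes with the most loops and 5 with the largest differences in each direction (ties taken in order of symbol), with the WT list as circles, the STAG2-KD list as squares and loops at the same bins in both as vertical ticks. ZNF526 goes from 4 to 7 and ZNF628 from 3 to 0, whereas ZNF444 has the same 3 loops in both.

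ZNF loops had a lower median distance than the other promoter loops of the chromosome. The median distance between anchor midpoints was 55 kb in both lists (95% interval of the median 45 to 70 kb and 40 to 75 kb), against 75 kb in both (70 to 80 kb and 65 to 80 kb) for the other promoter loops of chromosome 19 and 100 and 95 kb for ZNF genes of other autosomes. ZNF to ZNF loops had a median of 40 kb in both lists, and ZNF to other loops 80 and 67.5 kb. Loops under 50 kb made up 41.0% (31.5 to 51.0%) and 43.2% (32.7 to 54.2%) of ZNF loops against 31.8% (28.8 to 35%) and 33.3% (30.2 to 36.4%) of the others, and loops of 200 kb or more 7.62% (3.35 to 14.5%) and 9.09% (4.01 to 17.1%) against 14.1% (11.9 to 16.5%) and 14.5% (12.2 to 16.9%). The shared ZNF loops had a median of 50 kb, the WT-only loops 60 kb and the STAG2-KD-only loops 70 kb. Chromosome 19 loops with no protein-coding start in either anchor had medians of 65 kb (50 to 85 kb) and 57.5 kb (45 to 70 kb). These intervals overlapped those of the ZNF loops. The differences between ZNF and other loops were not tested, since loops that share anchors are not independent.

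**Figure D5:**
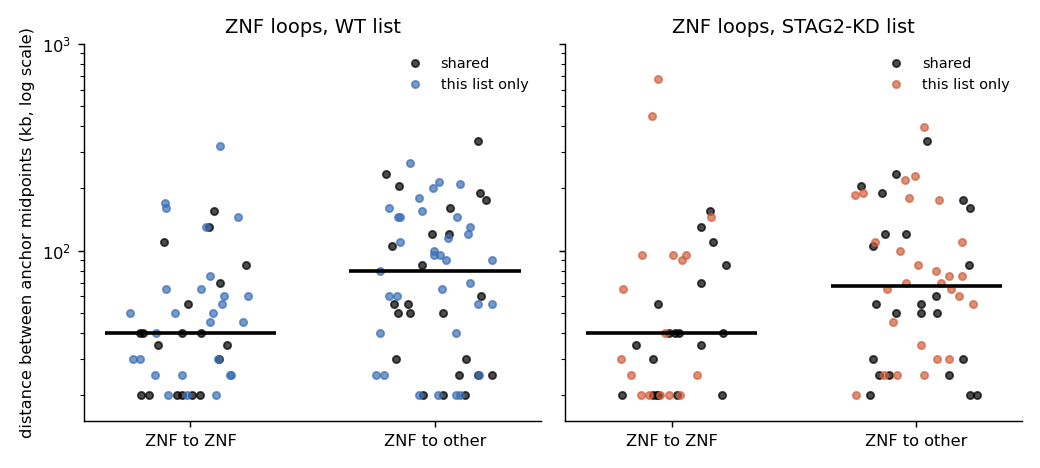
Distance between anchor midpoints in kb (log axis) of each ZNF loop in the WT and STAG2-KD lists, split by whether the partner is a ZNF promoter, with shared loops in black and the median as a bar. The bars lie at 40 kb for ZNF to ZNF loops in both lists and at 80 and 67.5 kb for the others, and the STAG2-KD list holds the 2 longest ZNF to ZNF loops, at 450 and 675 kb.

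The genes that work with KRAB zinc finger proteins were looked at as a list of 15. Over all autosomal protein-coding genes 39.1% were looped in the WT list and 36.8% in the STAG2-KD list, and of the 8563 looped in either list 2949 had more and 3722 fewer loops in the STAG2-KD list. In the cofactor list 9 genes were looped in the WT list and 8 in the STAG2-KD list, with 37 and 41 loops, and 6 genes had more and 3 fewer loops in the STAG2-KD list. TRIM28, the corepressor that KRAB domains recruit, lies beside the last ZNF cluster and had 3 loops in the WT list and none in the STAG2-KD list. They went to ZBTB45 at 25 kb, to SLC27A5 at 45 kb and to a bin without a protein-coding start at 30 kb. CBX5, which encodes the heterochromatin protein HP1 alpha, had 8 and 12 loops, CHD4, a remodeller of the NuRD complex, 7 and 4, and HDAC1, a histone deacetylase, 6 and 8. ATF7IP, a partner of SETDB1, had 3 and 0, and DNMT1, the maintenance DNA methyltransferase, 2 and 5. SETDB1 itself had none in either list. Of 23 zinc finger genes of chromosome 19 under other symbols, 4 and 3 were looped, against 44.7% and 43.3% of all protein-coding genes of the chromosome without a ZNF symbol, with 11 and 13 loops. ZBTB45 had 6 and 8 of these and ZSCAN22 had 3 and 4.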

How the data were processed

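H3K27ac HiChIP libraries of M14 cells were digested with MboI, aligned to hg19 with HiC-Pro, and loops were called by the authors with hichip-peaks and FitHiChIP. Versions are not given in the sources used here. The deposited lists hold positions only (chromosome, left start, right end), in 5 kb bins, with no count or score. Carriage returns in one list were removed. Groups were read from the sample titles. Transcript starts were taken from GENCODE release 44 on hg19, and starts of any transcript of a protein-coding gene were used. Shares carry 95% exact Clopper-Pearson intervals, which cover counting error only, and medians carry 95% order-statistic intervals. Loops at the same bins at both ends were called shared. A gene was called looped in 1 list only with 1 or more loops there and 0 in the other. Promoter letters came from RefSeq, and biotite 1.4.0 aligned promoter pairs (match 5, mismatch -4, gap opening -10, gap extension -1, free end gaps). Python 3.11.15, pandas 2.3.3 and scipy 1.17.1 were used. The counting steps were tested on simulated data, where 6 of 6 planted values were recovered.

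The genes and gene lists were chosen with earlier results of these data known. Genes were named by rule: the 10 with the most loops, 5 of the largest differences in each direction (15 genes tied at 2 fewer loops and 6 at 2 more), the ends of the longest and shortest loops, the 5 with the most ZNF to ZNF loops, and the first, last and most looped gene of each cluster, with ties in order of symbol. Their partners, the recurrent partner promoters and the promoter pairs of high identity were named after their values were seen. Alternatives changed the starts used, the anchor margin, readthrough genes, the 1 Mb limit, the bin tolerance, the cluster gap and the clusters included. One partner gene of ZNF promoters is not reported here.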

Additional observations from a re-analysis of the deposited data

How the results depend on the processing

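The 14 values that answer the comparisons (7 in each list) were recomputed under 12 alternatives, which gave 120 values. None left the 95% interval of the value reported or, for counts of genes and loops per gene, a range of 1.5 times around it. Some alternatives could hardly move a value. The 1 Mb limit removed no ZNF loop, as the longest spans 675 kb. No readthrough gene had a loop, so leaving these out changed only the number of genes, from 249 to 246. The share of ZNF genes with a loop ran from 30.9 to 39.6% (WT) and from 26.1 to 34.9% (STAG2-KD). ZNF to ZNF loops ran from 38.8 to 43.8% and from 31.6 to 41.4%, lowest in the STAG2-KD list with 1 start a gene. Shared loops ran from 37.1 to 47.6% and from 44.3 to 59.1%, and the upper values came with a tolerance of 2 bins. Loops leaving a cluster ran from 12.3 to 20.8% and from 16.7 to 25.4%, and the median distance from 50 to 60 kb in both lists. Genes looped in 1 list only ran from 19 to 30 (WT) and from 15 to 17 (STAG2-KD), with 19 and 15 without the cluster from ZNF264 to ZNF446. The alternatives without the ZNF101 to ZNF254 cluster and without the loops of ZNF460 were chosen after seeing the data. Without ZNF460, 31.6% of the WT and 41.4% of the STAG2-KD ZNF to ZNF loops were shared. No paired analysis was possible because only 1 list per group was analysed, and for the same reason no replicate could be left out. The lists hold no read counts, so depth, and with it the limit of detection of a loop, is unknown.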
